A study of Mus musculus with 12 samples.

Results

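The untreated baseline of the 4T1 mammary tumour was described from the 3 vehicle libraries of a series of 12, chosen by their treatment label. 4T1 is a transplantable mouse mammary carcinoma line from a BALB/c mouse that spreads to distant organs and is widely used as a model of advanced breast cancer. Wild-type BALB/c mice had received 300000 luciferase-expressing 4T1 cells in the mammary fat pad, were given vehicle from day 14 for 2 weeks, and were killed on day 28, when the tumours were taken. The other 9 libraries came from mice given MBQ-167, paclitaxel or both, and no drug comparison is made here. The labels name the libraries biological replicates without saying whether each is a separate mouse, so the spread given below is the spread between libraries. The tumours arose from injections on several occasions, and which library belongs to which occasion is not stated. The RNA is that of the whole tumour, so host cells are part of each library.

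A 4T1 tumour in a BALB/c mouse has an intact immune system around it. The carcinoma cells are known to secrete granulocyte colony-stimulating factor, which drives the release of neutrophils from the bone marrow, and to attract macrophages through colony-stimulating factor 1 and CC chemokines. The cancer cells keep simple epithelial keratins while also carrying mesenchymal proteins, and fibroblasts, vessels and a collagen-rich matrix form the stroma. In a bulk sample, fewer cells of a type and less RNA per cell cannot be told apart.

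The libraries held 16025318, 14119192 and 16419510 counts over 46078 listed genes, and protein-coding genes took 52.7%, 55.8% and 58.6% of them. A cluster of 3 ribosomal RNA-like features on chromosome 17 (Gm26917, Gm42418 and CT010467.1) took 37.5%, 34.5% and 31.6%, although the labels describe polyA RNA. Levels are given as TPM, that is counts per kilobase of exon scaled so that the protein-coding genes of a library sum to 1000000, so genes can be set beside each other. A level written as 3 values is that of vehicle 1, 2 and 3 in this order. Spread is given on CPM, counts divided by the TMM-corrected library size and multiplied by 1000000. A gene was kept for spread with a mean of 10 counts or more, which left 16427 genes, 13030 of them protein-coding. The filter uses the same 3 libraries, so a low-count gene can pass it through 1 library, which is then bound to be its highest. A gene was called spread where the highest library was over 2-fold the lowest after adding 0.5 CPM. With 1 group and 3 libraries no test was made, and all calls below are calls by size.

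Vehicle 3 stood apart from vehicle 1 and 2. It held by far the most hepatocyte transcripts, it had the most neutrophil and the fewest macrophage transcripts, and it was part of both of the less similar pairs of libraries. Across the kept genes, log2(CPM + 0.5) correlated at Pearson r = 0.977 between vehicle 1 and 2, 0.961 between vehicle 1 and 3 and 0.950 between vehicle 2 and 3. Genes within a library are not independent, so these values only describe the pairs. A difference over 2-fold was found for 4.42%, 7.46% and 9.68% of kept genes in those pairs. Over all 3 libraries 2360 genes, 14.4% of those kept, were spread over 2-fold, and this share is the background for every list below. Vehicle 3 was over 2-fold above both others for 382 genes (2.33%) and below both for 310 (1.89%). Vehicle 2 stood above both others for 0.84% of genes and below for 1.08%, and vehicle 1 for 0.237% and 0.828%. Among all kept genes the highest library was vehicle 1 in 31.1%, vehicle 2 in 33.2% and vehicle 3 in 35.7%, and the lowest in 29.8%, 33.0% and 37.2%. Counts of highest and lowest libraries below are read beside these shares.

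**Figure D1:**
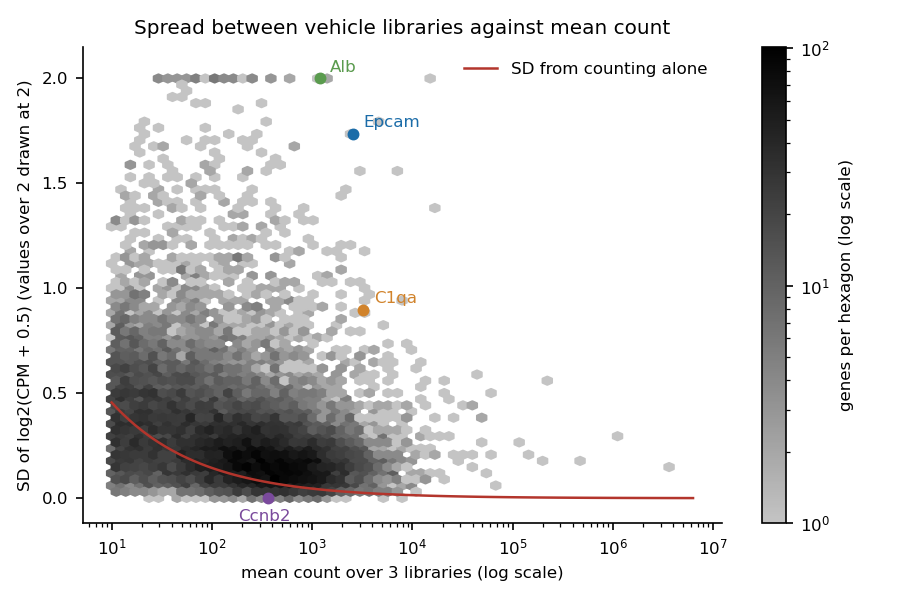
SD of log2(CPM + 0.5) over the 3 vehicle libraries (y axis, values over 2 drawn at 2) against the mean count of a gene (x axis, log scale) for the 16427 kept genes, shaded by the number of genes. The red line is the SD that counting alone would give, and 4 genes named in the text are marked. Most genes with 100 counts or more lie above the line, and Alb, Epcam and C1qa lie far above it.

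Of 21596 listed protein-coding genes, 13517 reached a mean of 1 TPM, 9963 reached 10, 2028 reached 100 and 101 reached 1000. The 100 most abundant protein-coding genes took 24.1%, 24.3% and 24.4% of the TPM in vehicle 1, 2 and 3, so the libraries gave a like share to their top genes. Ccdc107, taken up below, had the highest TPM. Actb, cytoplasmic actin, stood at 10595, 9758 and 11307 TPM. mt-Co1, a subunit of cytochrome c oxidase encoded in the mitochondrion, followed at 7298, 8767 and 13483 TPM. It was lowest in vehicle 1, while Actb was lowest in vehicle 2. Eef1a1, a translation elongation factor, stood at 8705, 7554 and 7538 TPM. Spp1, the secreted phosphoprotein osteopontin, stood at 6846, 8321 and 9264 TPM and was the top gene of the matrix glycoprotein list. Lgals1, the lectin galectin 1, and Fn1, fibronectin, followed at means of 6922 ± 1022 and 5483 ± 893 TPM (SD, n = 3). Among the 20 most abundant genes Lyz2, the lysozyme of macrophages and neutrophils, varied the most, with 5514, 10541 and 1627 TPM.

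Some levels near the top and in familiar housekeeping genes are uncertain, since these genes overlap others or have near-identical copies and the treatment of such reads is not stated. Ccdc107 had the highest TPM of all protein-coding genes, with 17196, 14328 and 10579, but it overlaps the RNase MRP RNA gene Rmrp on the other strand over 159 bases, and the count of Rmrp came to 99.5%, 98.9% and 98.8% of that of Ccdc107. Whether the counting used strand is not stated, so the 2 genes cannot be told apart. Gapdh, an enzyme of glycolysis with many processed copies in the mouse genome, stood at only 34.1, 42.0 and 32.9 TPM, below Aldoa at 1982, 1758 and 1917. The mitochondrial genes mt-Co2, mt-Co3, mt-Atp6, mt-Atp8, mt-Nd3 and mt-Nd4l stood between 9.98 and 98.8 TPM on average, against 9849 for mt-Co1. A stretch of chromosome 1 carries pseudogene copies of mitochondrial genes, and 6 of the 7 listed there were kept, led by Gm10925 with 128, 168 and 346 counts. The levels of all these genes are uncertain.

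Of the simple epithelial and adhesion genes, which carcinoma cells express, 21 of 22 listed members averaged 1 TPM or more. Host epithelium can express these genes too, so the carcinoma cell's own part cannot be read from a bulk sample. Krt18 and Krt8, the paired keratins of simple epithelium, led the list. Krt18 stood at 3681, 2062 and 4621 TPM and Krt8 at 1701, 1232 and 2277 TPM in vehicle 1, 2 and 3. Together they made up 92.2% of the keratin TPM, and of 53 keratin genes in the annotation 21 had no count and 14 averaged 1 TPM or more. The keratins of stratified epithelium were low: Krt5 was listed at 3.86, 0.935 and 0 TPM, while Krt14 reached 115, 23.7 and 228.

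The epithelial genes differed between libraries more than most genes did. Of the 21 kept members 17 were spread over 2-fold, against the background of 14.4%, and vehicle 2 was lowest in 19 and below both others in 13. Vehicle 3 was the highest library in 16. The summed level was 7813, 4097 and 10755 TPM, with a mean of 7555 ± 3337 (SD, n = 3). The median SD of log2(CPM + 0.5) over the members was 1.00, against 0.24 over all kept genes. Epcam, the epithelial cell adhesion molecule, stood at 465, 95.0 and 1013 TPM. Cdh1, E-cadherin, stood at 203, 51.1 and 376 TPM. Vehicle 2 was thus low and vehicle 3 high for both of these adhesion proteins, with vehicle 1 between them. Cldn7, a tight junction claudin, stood at 138, 17.9 and 123 TPM, so vehicle 1 and 3 were close and vehicle 2 was apart. Rab25, a GTPase of epithelial recycling endosomes, stood at 38.9, 3.99 and 50.3 TPM, and the same library was apart. Esrp1, the epithelial splicing regulator, and Grhl2, an epithelial transcription factor, stood at 61.1, 15.4 and 98.6 TPM and at 14.7, 8.29 and 33.3 TPM. Tjp1, Spint1, Krt8 and Cdh3 were the members that were not spread, and Tjp1, the junction scaffold ZO-1, stood at 109, 119 and 134 TPM.

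Most of this spread rested on vehicle 2. With it left out 5 of the 21 members (23.8%) differed over 2-fold between vehicle 1 and 3, against 7.46% of all kept genes. With vehicle 3 left out 13 of 21 did, against 4.42%, and with vehicle 1 left out 17 of 21, against 9.68%. Other cell markers moved with this order. The 25 macrophage genes summed to 8653, 11885 and 4132 TPM, highest where the epithelial genes were lowest, and Adipoq of fat cells and Igkc of plasma cells had the same order as the macrophage genes, with 3.76, 14.1 and 0.942 and 50.5, 157 and 8.96 TPM. Endothelial and mesenchymal sums differed little, at 764, 978 and 864 and 19747, 19315 and 20114 TPM. Their part in the result was not tested.

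Basal and squamous genes had a like order, with vehicle 2 lowest and vehicle 3 highest in 8 of the 10 kept members each, and 6 spread. Only 10 of 20 members were kept, and the cornified layer genes Ivl and Lor averaged under 10 counts. Lamb3, a chain of an epithelial laminin, stood at 50.01, 10.5 and 209 TPM, and Lama3, a further chain named after its values were seen, at 24.9, 5.55 and 161 TPM. Both were spread, and vehicle 2 was below both other libraries for each of them. This laminin anchors epithelial cells to their basement membrane through integrin alpha6 beta4. The integrin genes themselves were steadier, with Itgb4 at 366, 281 and 433 TPM and Itga6 at 176, 158 and 229 TPM. Lamb1 and Lamc1, chains of the laminins found in most basement membranes, stood at 426 ± 23.7 and 440.0 ± 10.5 TPM and were not spread.

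**Figure D2:**
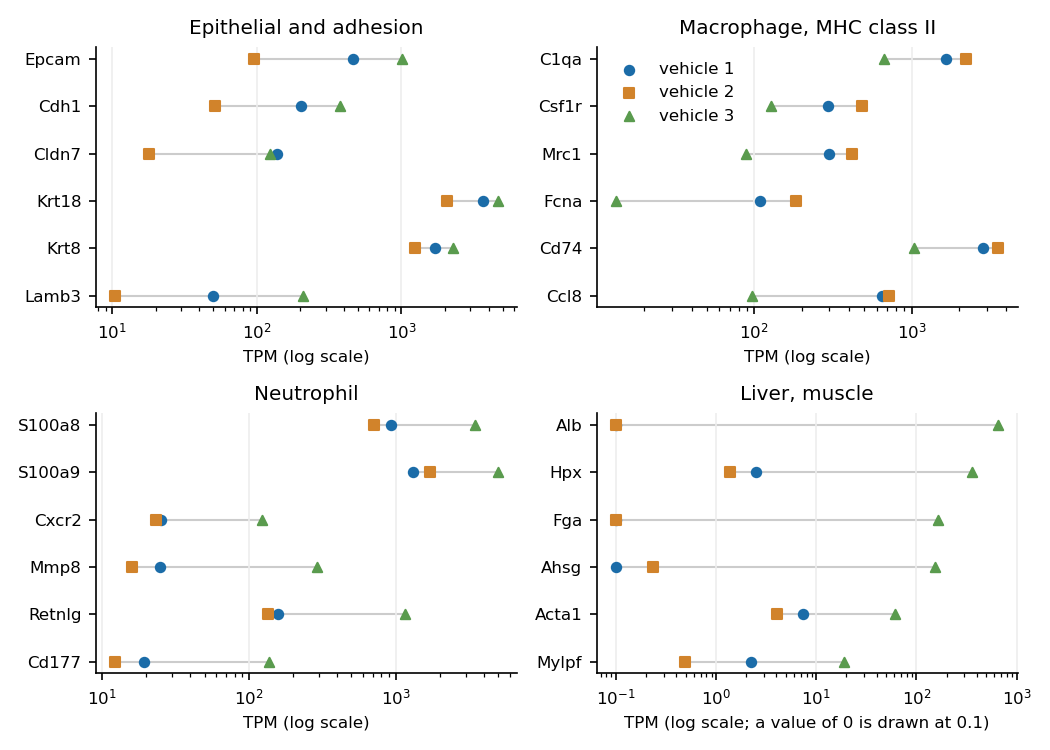
TPM (x axis, log scale) of 24 genes in vehicle 1 (circles), 2 (squares) and 3 (triangles), grouped by programme, with a grey line from the lowest to the highest library; a value of 0 is drawn at 0.1, where vehicle 2 covers vehicle 1 for Alb and Fga. Vehicle 2 is lowest for all 6 epithelial and adhesion genes, vehicle 3 is lowest for all 6 macrophage and MHC class II genes and highest for the neutrophil, liver and muscle genes.

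Mesenchymal genes were abundant beside the epithelial ones. The 17 members summed to 19747, 19315 and 20114 TPM, and 2 of 16 kept members were spread, Zeb2 and Cdh2, a share near the background. Vim, the intermediate filament vimentin, stood at 4769, 4036 and 2681 TPM, and Itgb1, the integrin beta1 chain, at 1577, 1515 and 1696 TPM. Axl, a receptor tyrosine kinase, stood at 767, 706 and 503 TPM. Among the transcription factors of the epithelial to mesenchymal switch, Twist1 was the highest at 127, 179 and 147 TPM and Snai1 followed at 40.7, 70.0 and 66.9 TPM, while Snai2 did not reach 10 counts on average. Cdh2, N-cadherin, was near 0 at 0.526, 0.382 and 1.72 TPM. Fibroblasts, vessels and macrophages also express most of these genes, so the tumour cell's own part cannot be read from a bulk sample.

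Hormone receptors and milk genes were low. Esr1, the oestrogen receptor, stood at 11.98, 12.6 and 10.8 TPM, and Pgr, the progesterone receptor, at 0, 0.180 and 0.304 TPM. Erbb2, the HER2 receptor, stood at 54.4, 46.4 and 82.5 TPM. Gata3, a luminal transcription factor that T cells also use, was the highest of these 15 genes at 173, 162 and 139.7 TPM. The milk protein genes Csn2, Csn3, Wap and Lalba all averaged under 1 TPM.

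Of 25 oncogenes and tumour suppressors, 24 averaged 1 TPM or more and 2 of 23 kept members were spread, Hmga1 and Brca2. Ccnd1, cyclin D1, was the most abundant at 1012, 854 and 969.8 TPM, and Akt1 at 475, 479 and 477 TPM hardly differed between libraries. Myc stood at 167, 150.2 and 214 TPM. Trp53 transcripts stood at 44.0, 40.9 and 36.5 TPM. Cdkn2a, the gene of the cell cycle inhibitor p16, was nearly at 0, with 0.402, 2.63 and 1.11 TPM.

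Proliferation genes were expressed in full, and none was called spread. All 30 averaged over 10 TPM and none of the 30 was spread, against the background of 14.4%. Among genes with a mean of 100 counts or more that background was 7.75%. The median SD of log2(CPM + 0.5) over the 30 genes was 0.19, against 0.24 over all kept genes. It was 0.20 over genes with a mean of 100 counts or more, so these genes varied about as other well-counted genes did. Mki67, the antigen of cycling cells, stood at 125, 117 and 151 TPM, and Top2a, topoisomerase II alpha, at 205, 182 and 219 TPM. Ccnb2, cyclin B2, had the smallest spread of any protein-coding gene at a mean of 5 CPM or more, with 108, 112 and 111 TPM. The replicative helicase gene Mcm6 differed more, at 153, 88.9 and 152 TPM. The summed level was 2361, 2053 and 2446 TPM, lowest in vehicle 2.

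None of 17 glycolysis genes and none of 22 nuclear genes of oxidative phosphorylation was called spread. The median SD, on the same log scale, was 0.14 over the glycolysis genes and 0.22 over the nuclear genes of oxidative phosphorylation. Over the well-counted genes described above it was 0.20. The glycolysis median was thus below that of well-counted genes, and the oxidative phosphorylation median was near it. Glycolysis summed to 8053, 7727 and 7832 TPM, led by Aldoa, aldolase A, and Pkm, pyruvate kinase, at 1738, 1669 and 1517 TPM. Slc2a1, the glucose transporter GLUT1, stood at 516, 564 and 579 TPM and Ldha, lactate dehydrogenase A, at 1002, 1031 and 1079.5 TPM. The nuclear genes of oxidative phosphorylation were lowest in vehicle 3 in 15 of 22 and highest in vehicle 1 in 16. Their sum was 6514, 5938 and 5323 TPM. The genes encoded in the mitochondrion had another order, lowest in vehicle 1 in all 11 kept members and highest in vehicle 3 in 8. They summed to 18428, 26703 and 35530.0 TPM, or 18306, 26500 and 35236 without the 6 genes with nuclear copies named above, and 4 of 11 were spread. mt-Cytb, cytochrome b, stood at 3179.8, 5146 and 6749.8 TPM. The share of the chromosome 17 ribosomal features ran the other way, 37.5%, 34.5% and 31.6%, and its part in the result was not tested.

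Targets of hypoxia averaged over 10 TPM in all 17 members. Ddit4, an inhibitor of mTOR signalling, stood at 567, 672 and 932 TPM and Car9, carbonic anhydrase 9, at 252, 234 and 284 TPM. Vegfa, the vascular endothelial growth factor, was highest in vehicle 2 at 99.0, 228 and 114 TPM and was 1 of 5 spread members. Chaperones of the endoplasmic reticulum were abundant, with Hspa5, the chaperone BiP, at 1821, 1575 and 1175 TPM. Among 28 kept interferon response genes 5 were spread, a share near the background, and vehicle 3 was lowest in 19, beside 37.2% of all kept genes. Isg15, a ubiquitin-like protein induced by interferon, stood at 141, 114 and 88.9 TPM. MHC class I genes were high, with B2m at 3712, 3578 and 3173 TPM and H2-D1 at 1608, 1643 and 1545 TPM, and 1 of 13 was spread, the immunoproteasome subunit Psmb10. The H2 gene models are those of another mouse strain than BALB/c, so the levels of these polymorphic genes are uncertain.

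Matrix genes were expressed in all 3 libraries. The 15 fibrillar and network collagens summed to 6704, 7438 and 12169 TPM, and vehicle 3 was the highest library in 13 of them. Col1a1, the main chain of collagen I, stood at 2376, 2430.3 and 4868 TPM and made up 35.1% of the TPM of all 44 collagen chains. Its partner Col1a2 stood at 601, 579 and 1185 TPM. In both chains vehicle 1 and 2 lay side by side and vehicle 3 stood above them. Col3a1 stood at 755, 899 and 1525 TPM and the basement membrane chain Col4a1 at 629.7, 692 and 869 TPM, and neither was spread on the CPM scale. Of the 15 collagens 7 were spread, against 7 without vehicle 1, 4 without vehicle 2 and 1 without vehicle 3.

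Fibroblast genes were mostly highest in the same library. Vehicle 3 was the highest in 14 of 20 and vehicle 2 the lowest in 11. Of the 20 genes 9 were spread, against 6 without vehicle 1, 3 without vehicle 2 and 1 without vehicle 3. Over all kept genes the shares were 9.68%, 7.46% and 4.42% with those libraries left out. Tnc, the matrix protein tenascin C, stood at 512, 351 and 945 TPM and Dcn, decorin, at 29.1, 29.3 and 65.2 TPM. Pdgfra, a receptor that marks fibroblasts, was instead highest in vehicle 2 at 77.4, 140.2 and 66.5 TPM, and Dpt, dermatopontin, likewise at 25.2, 44.7 and 16.8 TPM. Acta2, the actin of smooth muscle and activated fibroblasts, stood at 164, 115 and 181 TPM. Of the matrix metalloproteases, 10 of 16 kept members were spread. Mmp14, the membrane protease, was steady at 313, 355 and 342 TPM, while Mmp13, a collagenase, stood at 142, 80.9 and 256 TPM and Mmp2, a gelatinase, at 89.4, 77.4 and 214 TPM. Mmp12, the macrophage elastase, was instead highest in vehicle 1 and lowest in vehicle 3, at 74.7, 54.2 and 35.4 TPM.

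Endothelial genes were all present, and their spread was that of genes in general. All 20 averaged 1 TPM or more, 3 were spread, a share near the background of 14.4%, and the sum was 764, 978 and 864 TPM. Vehicle 2 was the highest library in 13 and vehicle 1 the lowest in 13, beside 33.2% and 29.8% of all kept genes. Cdh5, VE-cadherin, stood at 99.8, 135 and 139 TPM and Pecam1, CD31, at 62.5, 72.1 and 59.2 TPM. Esm1, a gene of endothelial tip cells, was spread and highest in vehicle 2 at 23.6, 46.6 and 16.95 TPM. Lymphatic markers were lower. Prox1, the lymphatic master factor, stood at 0.225, 0.0612 and 1.29 TPM, and Lyve1, which macrophages also carry, at 16.5, 49.6 and 11.7 TPM. The pericyte gene Rgs5 was highest in vehicle 2 at 50.3, 108 and 29.2 TPM.

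**Figure D3:**
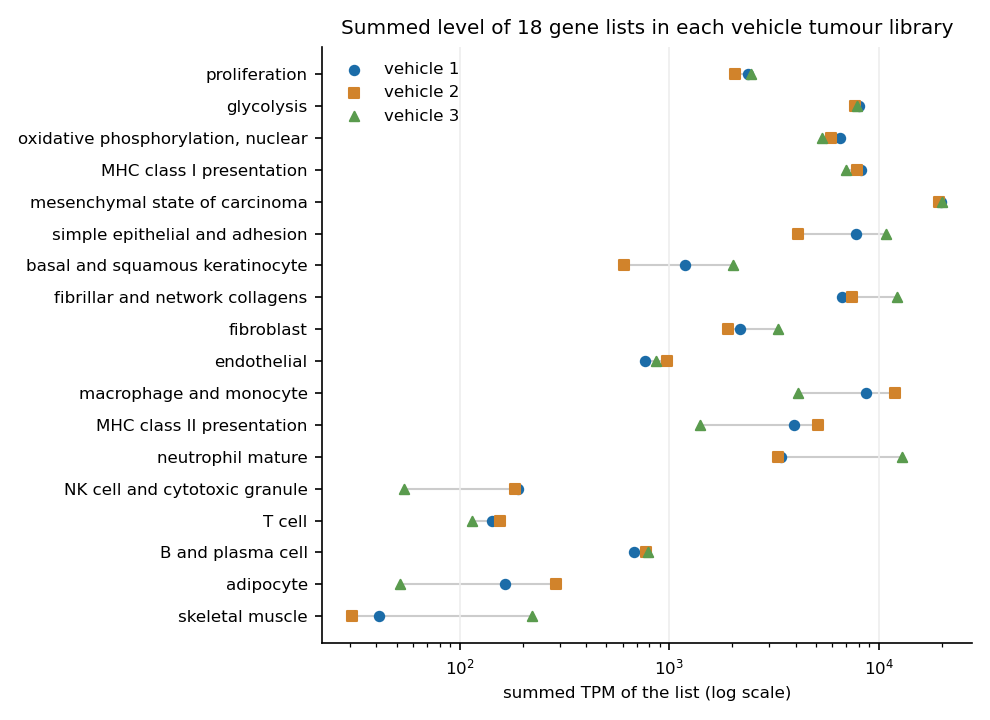
Summed TPM (x axis, log scale) of 18 gene lists (y axis) in vehicle 1 (circles), 2 (squares) and 3 (triangles), with a grey line from the lowest to the highest library. The proliferation, metabolic and mesenchymal sums lie close together, while the macrophage, MHC class II, neutrophil, adipocyte and muscle sums are wide apart.

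Among the leukocyte lists those of macrophages and neutrophils had the highest sums. Macrophages and mature neutrophils stood in opposite order, although vehicle 1 and 2 lay close together for mature neutrophils. Macrophage and monocyte genes summed to 8653, 11885 and 4132 TPM and mature neutrophil genes to 3420.5, 3292 and 12928 TPM. Vehicle 2 was the highest library in 19 of 22 kept macrophage genes and vehicle 3 below both others in 17. Vehicle 3 was the highest library in 21 of 24 kept neutrophil genes and above both others in 16. Genes shared by all leukocytes summed to 1995, 2671 and 1498 TPM, with 4 of 10 spread and vehicle 3 lowest in 8. Tyrobp, an adaptor of myeloid receptors, stood at 493, 822 and 365 TPM in this order, whereas Ptprc, the pan-leukocyte antigen CD45, stood at 33.6, 49.9 and 37.7 TPM with vehicle 1 lowest.

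Among the macrophage genes the complement subunits were the highest after Apoe, the lipid carrier, which stood at 2859, 4112 and 1688 TPM. C1qa stood at 1656, 2211 and 672 TPM, with C1qb and C1qc in the same order. Csf1r, the receptor for colony-stimulating factor 1, stood at 296, 482 and 128 TPM. For each of these genes vehicle 3 was the lowest and vehicle 2 the highest library. Mrc1, the mannose receptor CD206, stood at 300.4, 415 and 88.0 TPM, and Arg1, the arginase of suppressive myeloid cells, at 909, 894 and 268 TPM. Nos2, inducible nitric oxide synthase, was the 1 kept gene of the list that was not lowest in vehicle 3, at 38.1, 55.7 and 82.1 TPM. Of the 22 kept genes 20 were spread, and the median SD of log2(CPM + 0.5) was 0.93. Without vehicle 3 a single gene of the list was spread.

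Genes known from resident and alternatively activated macrophages had the same order. Among 10 such genes, chosen after their values were seen, all were spread and highest in vehicle 2, and vehicle 3 was below both others in 9. Mrc1, Cd163 and Folr2 are also members of the macrophage list, and a set chosen this way adds no support to that order. Between vehicle 1 and 2, 4 of the 10 differed over 2-fold. Fcna, ficolin A, stood at 108, 183 and 13.3 TPM and Fcrls, an Fc receptor-like gene, at 89.9, 170.2 and 9.84 TPM. Folr2, a folate receptor, stood at 70.2, 126 and 11.2 TPM. Ccl8, a monocyte-attracting chemokine, stood at 645, 722 and 96.7 TPM. Slpi, a secreted inhibitor of leukocyte proteases that is not confined to macrophages, stood at 1625, 3518 and 307 TPM. Vehicle 3 held the lowest level of all 5 of these transcripts.

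MHC class II genes had the same order in all 7 kept members, vehicle 2 highest and vehicle 3 lowest. All 7 were spread, and that order of libraries was found in 20.4% of all kept genes. Cd74, the invariant chain, stood at 2827, 3555 and 1034 TPM and H2-Ab1 at 278, 375 and 91.5 TPM. Ciita, the master regulator of class II transcription, stood at 10.0, 25.9 and 4.41 TPM. Genes of dendritic cells were low apart from Fscn1 and Bst2, which other cells also express. Clec9a, a marker of cross-presenting dendritic cells, stood at 1.29, 3.90 and 0.527 TPM and Xcr1 at 0.741, 0.346 and 0.0973 TPM.

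In the neutrophil list, S100a9 and S100a8, the subunits of calprotectin, were the highest. S100a9 stood at 1309, 1708 and 4956 TPM and S100a8 at 927, 715 and 3456 TPM. Vehicle 3 stood above the other two libraries, which lay close together. Cxcr2, the receptor by which neutrophils follow CXC chemokines, stood at 25.4, 23.3 and 124 TPM, and Csf3r, the receptor for granulocyte colony-stimulating factor, at 65.0, 72.6 and 174 TPM. Mmp8, neutrophil collagenase, stood at 24.7, 15.9 and 291 TPM and Retnlg, a resistin-like secreted protein, at 159, 134 and 1160.1 TPM. The gap between vehicle 3 and the others was thus wider for Mmp8 and Retnlg than for Csf3r. The median SD of log2(CPM + 0.5) over the 24 kept genes was 0.98. Trem1, Clec4e, Hdc, G0s2, Acod1 and Trem3, which monocytes or mast cells also use, were not spread, and Trem1 stood at 34.2, 26.8 and 34.0 TPM. The stefin A genes Stfa2, Stfa2l1, Stfa3, BC100530 and Gm5483 are near-identical copies, and their separate levels are uncertain.

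Genes of granule formation, which are made in marrow precursors, were split. Ngp, neutrophilic granule protein, stood at 71.4, 76.9 and 589 TPM and Ltf, lactoferrin, at 24.1, 25.6 and 128 TPM, both highest in vehicle 3. The genes of the earliest granules, Mpo and Elane, were nearly at 0, with Mpo at 1.79, 2.55 and 2.66 TPM. Without Lyz2, which followed the macrophage order, this list summed to 812, 893 and 1796 TPM. Between vehicle 1 and 2, 2 of 24 mature neutrophil genes and 1 of 11 granule genes were spread.

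**Figure D4:**
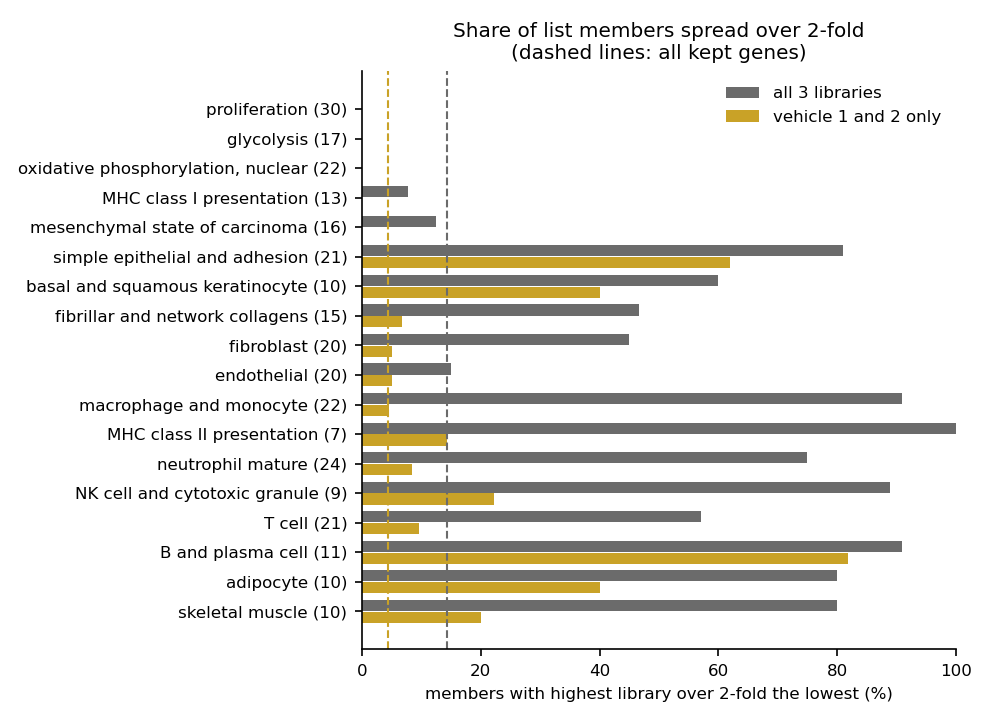
Share of kept members with the highest library over 2-fold the lowest (x axis, percent) for the same 18 lists, number of kept members in brackets, over all 3 libraries (grey) and over vehicle 1 and 2 only (yellow). Dashed lines give the share over all kept genes, 14.4% and 4.42%. Without vehicle 3 the macrophage and neutrophil bars come down near the line, while the epithelial and B cell bars stay far above it.

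Lymphocyte genes were low, with 3 of 24 T cell genes at 10 TPM or more. Cd3e, a chain of the T cell receptor complex, stood at 3.35, 2.52 and 1.27 TPM, Cd4 at 5.03, 5.48 and 1.08 TPM and Cd8a at 4.41, 4.66 and 3.34 TPM. Foxp3, the factor of regulatory T cells, stood at 13.8, 12.7 and 8.52 TPM. Vehicle 3 was the lowest library in 18 of 21 kept T cell genes, and 12 were spread. Genes of cytotoxic granules were lower in vehicle 3 as well, which was the lowest library in all 9 kept genes of that list. Low-count members such as Gzma, with 19, 21 and 2 counts, passed the filter only through vehicle 1 and 2. All 17 listed members, kept or not, summed to 189, 183 and 53.9 TPM. Prf1, perforin, stood at 25.9, 11.7 and 6.04 TPM and Nkg7, a granule membrane protein, at 11.4, 8.99 and 1.90 TPM. The natural killer receptor Ncr1 stood at 2.45, 2.34 and 0 TPM, with too few counts to be kept.

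The granzymes, serine proteases of these granules, were uneven. Gzmd stood at 140.4, 61.8 and 17.1 TPM, Gzmf at 114, 67.1 and 21.2 TPM and Gzmg at 99.1, 46.9 and 15.3 TPM. Gzmb, the main killing protease of T cells, was lower at 18.7, 8.94 and 3.02 TPM. The genes of the Gzmc to Gzmg cluster are close copies of each other, so the split between them is uncertain. Of 10 granzymes 7 were kept and all 7 were spread, 6 of them highest in vehicle 1 and 6 with vehicle 3 below both others. This set was chosen after the values were seen.

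B and plasma cell genes were highest in vehicle 2. Igkc, the kappa light chain constant region, stood at 50.5, 157 and 8.96 TPM and Ighm, the IgM heavy chain, at 16.0, 46.0 and 3.45 TPM. Vehicle 2 stood above both others in 9 of 11 kept members, and the pair of vehicle 1 and 2 differed over 2-fold in 9. Sdc1 and Xbp1 did not share this order and are also expressed by epithelial and secretory cells. Without them the list summed to 96.5, 297 and 17.9 TPM. Glycam1, a mucin of lymph node vessels that the mammary gland also makes, stood at 3.32, 11.3 and 0.203 TPM, highest in the same library. The follicle chemokine Cxcl13 did not follow, at 4.92, 5.81 and 5.65 TPM, and Ccl19 and Ccl21a were at 0 counts in all 3. Both have further copies in the assembly, so these zeros are uncertain.

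Mast cell proteases were at low levels. Cma1, mast cell chymase, stood at 24.2, 12.3 and 2.78 TPM and Tpsb2, a tryptase, at 21.3, 12.9 and 6.799 TPM. Mcpt8, a protease of basophils, was highest in vehicle 1 at 26.0, 2.06 and 8.69 TPM. No eosinophil gene was kept, and Epx and Il5ra had no count. Hbb-bs, adult beta globin, stood at 1923, 1862 and 1699.5 TPM, nearly equal in the 3 libraries. The platelet chemokine Pf4 stood at 172, 208 and 39.1 TPM, in the order of the macrophage genes, while the platelet receptor genes Gp1bb and Itga2b were low, with Itga2b at 2.77, 3.58 and 3.10 TPM.

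Ligands and receptors of the myeloid axis were both present. Csf3, granulocyte colony-stimulating factor, stood at 114, 103 and 159 TPM and was not spread. It was highest in vehicle 3, as were its receptor and most neutrophil genes. Csf1 stood at 149, 206 and 95.1 TPM and shared the order of Csf1r. Of the ligands of Cxcr2, Cxcl1 stood at 22.1, 34.8 and 38.8 TPM, Cxcl2 at 20.5, 24.6 and 30.4 TPM and Cxcl5 at 8.86, 12.4 and 10.9 TPM, none of them spread. Ccl2 and Ccl7, ligands of Ccr2 on monocytes, were spread. Ccl2 stood at 21.6, 52.4 and 11.05 TPM and Ccl7 at 58.9, 109.7 and 7.04 TPM, against 33.6, 72.2 and 16.7 TPM for Ccr2. All 3 were highest in vehicle 2 and lowest in vehicle 3. Cx3cl1, fractalkine, did not share the order of its receptor. It stood at 64.7, 65.2 and 151 TPM, and Cx3cr1 at 58.6, 98.2 and 23.3 TPM. The interleukin 1 decoy receptor Il1r2, a neutrophil gene, stood at 85.5, 45.8 and 226.5 TPM and its ligand Il1b at 259, 260.3 and 160.5 TPM. Pthlh, the parathyroid hormone-like hormone linked to bone metastasis, was highest in vehicle 3 at 36.1, 21.6 and 100.4 TPM.

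Genes of immune restraint were present at moderate levels. Cd274, the checkpoint ligand PD-L1, stood at 40.5, 57.0 and 31.4 TPM and its receptor Pdcd1 at 5.38, 9.58 and 3.14 TPM. Cd47, a signal against phagocytosis, was steady at 254, 269 and 278 TPM, while its receptor Sirpa followed the macrophage order at 147, 197 and 94.3 TPM. Nt5e, the ectonucleotidase CD73, stood at 358, 616 and 427 TPM. Of 14 kept genes 4 were spread, and vehicle 3 was the lowest in 12.

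The 15 genes listed for the study's drugs, a drug efflux pump gene among them, were all expressed, at 1 TPM or more on average. Their spread was like that of genes in general. MBQ-167 is an inhibitor of Rac and Cdc42, small GTPases that organise actin, and paclitaxel binds beta tubulin in microtubules. Rac1 stood at 438, 382 and 452 TPM, Cdc42 at 706, 745 and 601 TPM and the tubulin Tubb5 at 2367, 1833 and 2404 TPM. Rac2, the Rac of blood cells, stood at 53.1, 82.1 and 98.1 TPM, highest in vehicle 3. The drug efflux pump gene Abcb1a was the only spread member of 15, at 4.13, 3.84 and 19.1 TPM.

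Transcripts of the liver were far higher in vehicle 3. Alb, serum albumin, had no count in vehicle 1 or 2 and 3563 counts in vehicle 3, where it stood at 0, 0 and 659 TPM. With 3 counts per library as the floor, Alb was at least 1008-fold higher in vehicle 3, and Fga, a fibrinogen chain, at least 325-fold higher. Such floors cover counting error only. Of the 15 protein-coding genes with the largest spread 14 were hepatocyte genes. Among them Hpx, the haem carrier hemopexin, stood at 2.52, 1.37 and 359 TPM and Ahsg, the serum protein fetuin A, at 0, 0.234 and 152 TPM. Apob, the apolipoprotein of very low density particles, stood at 0.0339, 0.0369 and 24.5 TPM, and Cps1, an enzyme of the urea cycle, at 0.0849, 0.0925 and 30.1 TPM. All 4 were at or near 0 in vehicle 1 and 2. Hp, the haemoglobin carrier haptoglobin, which other tissues also make, was present in all 3 libraries at 137, 183 and 447 TPM. Of 32 hepatocyte genes, chosen after these values were seen, 28 were kept, 27 were highest in vehicle 3 and 26 were above both others there. Genes such as Ttr, with 0, 0 and 210 counts, passed the filter only through vehicle 3, so these numbers were partly fixed by it. Over all 32 genes, 18 had no count in vehicle 1, 15 in vehicle 2 and 0 in vehicle 3. Hnf4a, a liver transcription factor, stood at 0, 0.213 and 3.68 TPM. The 32 genes took 0.0858% of the counts of vehicle 3, against 0.00425% and 0.00649% in vehicle 1 and 2. Genes of other organs were low in all 3 libraries. The 6 kidney genes summed to 3.38, 1.86 and 2.35 TPM, the 6 genes of pancreatic acini to 13.1, 14.1 and 10.1 TPM, the 5 of intestinal epithelium to 4.92, 5.17 and 5.15 TPM and the 6 of lung epithelium to 2.40, 3.00 and 3.51 TPM. None of the kidney and lung genes reached a mean of 10 counts. Cela1, an elastase made in several tissues, held nearly all of the acinar sum at 13.1, 13.1 and 8.27 TPM.

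Skeletal muscle genes were also highest in vehicle 3, in all 10 kept members, with 7 above both others. Actn3, with 63 counts in vehicle 3, passes the filter through that library alone, so the order was partly fixed by the filter. All 14 listed members, kept or not, summed to 41.2, 30.5 and 222 TPM. Acta1, skeletal actin, stood at 7.37, 4.01 and 60.7 TPM and Mylpf, a fast myosin light chain, at 2.22, 0.484 and 18.8 TPM. Fat cell genes had another order. Adipoq, adiponectin, stood at 3.76, 14.1 and 0.942 TPM, Cfd, adipsin, at 90.04, 135 and 10.8 TPM, and Car3, an abundant carbonic anhydrase of fat and muscle, at 17.8, 37.1 and 0.605 TPM. Vehicle 2 was the highest library in 8 of 10 kept adipocyte genes and vehicle 3 the lowest in 7. Vehicle 3 was thus the library with the most liver, muscle, neutrophil and collagen transcripts and the fewest of macrophages and fat, and whether these differences go together was not tested.

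To show what lies before the genes that set vehicle 3 apart, the last 100 bases before the RefSeq start were read for the 2 most abundant genes of the hepatocyte and of the mature neutrophil list whose window overlaps no GENCODE exon, among those with a RefSeq promoter entry. They are written 5′ to 3′ on the gene's strand, from RefSeq on GRCm38.p6. Hpx, Apoa1, Fga and S100a8 were passed over because an exon overlaps the window. Capitals mark the core of a TATA box, TATAAA, or a half-site of the liver factor HNF1, GTTAAT, on either strand. Alb holds the half-site, and Ahsg, S100a9 and Retnlg hold neither motif in this window. The GENCODE gene of Ahsg starts at base 22891277, so the Ahsg window lies inside that gene and is upstream by RefSeq only.
Alb, chr5:90460770-90460869, plus strand: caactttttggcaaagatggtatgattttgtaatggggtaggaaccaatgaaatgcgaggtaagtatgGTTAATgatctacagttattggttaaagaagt
Ahsg, chr16:22891915-22892014, plus strand: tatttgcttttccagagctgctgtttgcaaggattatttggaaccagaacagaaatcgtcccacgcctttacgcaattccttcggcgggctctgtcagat
S100a9, chr3:90695722-90695821, minus strand: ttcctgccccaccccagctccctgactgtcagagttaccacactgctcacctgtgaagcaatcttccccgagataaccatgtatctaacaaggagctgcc
Retnlg, chr16:48872508-48872607, plus strand: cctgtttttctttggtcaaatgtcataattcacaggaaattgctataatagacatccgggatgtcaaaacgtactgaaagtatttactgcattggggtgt
The HNF1 half-site was found on either strand within 250 bases before the RefSeq start in 5 of 20 hepatocyte genes with an entry, against 3.71% of 10764 kept genes with one, and in 1 of 19 neutrophil genes. The TATA core was found in 4 of 20 hepatocyte and 5 of 19 neutrophil genes, against 6.56% of all. These windows can hold exon bases by GENCODE. A match is a description of the letters only, and the absence of one says nothing of a factor.

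A few further genes set single libraries apart. Ibsp, the bone sialoprotein, was lowest in vehicle 1 at 9.35, 30.1 and 97.1 TPM. Alox15, a lipoxygenase of resident macrophages and eosinophils, was highest in vehicle 2 at 21.5, 71.2 and 0.530 TPM. Calcrl, the receptor component for adrenomedullin and CGRP, was also highest in vehicle 2 at 14.5, 63.9 and 13.0 TPM, and Slc6a2, the noradrenaline transporter, at 10.5, 46.3 and 3.72 TPM. Fcgbp, an Fc fragment binding protein of mucus, was the 1 of the 15 most spread genes that was lowest in vehicle 3, where it had no count, with 9.08, 8.76 and 0 TPM. Rps12, a ribosomal protein gene with small nucleolar RNAs in its introns, was highest in vehicle 1 at 393, 170.3 and 62.4 TPM. Of 79 kept genes of cytosolic ribosomal proteins 8 were spread, Rps12 among them.

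Among 10354 genes with a mean of 100 counts or more, the median SD of log2(CPM + 0.5) was 0.20, beside 0.07 from counting alone. The biological coefficient of variation fitted by edgeR over the 3 libraries was 0.276. It was 0.193 for vehicle 1 and 2 alone, 0.281 for vehicle 1 and 3 and 0.324 for vehicle 2 and 3. Base composition moved with library too: across 16338 kept genes with a known value the deviation of a library from the other two had a Spearman correlation with transcript GC content of 0.12 in vehicle 1, 0.03 in vehicle 2 and -0.12 in vehicle 3. These 3 values share genes and libraries, and their part in the list differences was not tested. The list differences rest on vehicle 3 to unequal degrees. Without it, 13 of 21 epithelial, 4 of 10 basal, 9 of 11 B cell and 4 of 10 adipocyte genes were still spread, against 1 of 22 macrophage, 1 of 7 MHC class II, 2 of 24 neutrophil, 2 of 21 T cell and 2 of 9 cytotoxic genes, beside 4.42% of all kept genes.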

How the data were processed

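Tumour RNA of the 3 vehicle libraries was analysed from 1 table of raw counts per gene. The authors made the deposited counts with HISAT2, HTSeq and GRCm38, per the submitters' processing notes, which also name DESeq2. Their versions were not given in the sources used here, nor were the strand setting and the handling of multiply mapped reads. The other 9 libraries of the table were not used here. Of 46078 gene identifiers 45229 matched GENCODE vM21, which gave symbols, biotypes and union exon lengths. Library sizes were corrected with TMM in edgeR 4.0.16 under R 4.3.3, over genes with a mean of 10 counts or more in the 3 libraries. CPM uses these sizes; TPM is counts per kilobase of union exon scaled to 1000000 over protein-coding genes. The spread of a gene is the SD of log2(CPM + 0.5), and a call needs a ratio over 2. Totals of 14119192 to 16419510 counts set the precision, and no test was made within 1 group. The calculation of the spread calls was checked on simulated counts with known folds.

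The members, the 47 gene lists and the rules were chosen with earlier results of these data known. Named genes were, per list, the 4 of highest mean TPM and the 2 most spread, 33 fixed genes, the 20 most abundant protein-coding genes, and, at a mean of 5 CPM or more, the 15 most and 10 least spread and the 10 furthest from both others in each library and direction. Other members named, and the hepatocyte, granzyme, epithelial laminin, other organ and resident macrophage sets, were chosen after their values were seen. Alternatives were RLE size factors of DESeq2 1.42.0, total counts, other gene filters, lengths and pseudocounts, and each library left out.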

Additional observations from a re-analysis of the deposited data

How the results depend on the processing

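The number of genes at 1 TPM or more lay between 13361 and 13587 under every alternative run. With no filter on low counts, vehicle 1 was above both others in 68 genes and vehicle 2 in 210. With a pseudocount of 0.1 CPM the counts above and below both others were 83 and 340 for vehicle 1 and 237 and 320 for vehicle 2, and 1944 over all libraries, against 1182. Leaving out 1 library each gave 681 to 1665 spread genes, lowest without vehicle 3 and 1252 without vehicle 2, and a median SD of 0.17 to 0.21. At a mean of 100 counts or more, an alternative chosen after seeing the data, 802 genes were spread, the median SD was 0.20, and the counts above and below both others were 9 and 18, 47 and 77, and 131 and 141 for vehicle 1, 2 and 3, 423 in all. Fewer genes are tested there by construction. On the same genes a smaller pseudocount can only raise a ratio, so it can only add calls. With no filter 26443 genes were tested, against 16427, and the library sizes were computed anew. The part of each in the counts was not tested. The other counts stayed within 1.5 times of the values in the report. Summed list levels moved by over 1 SD in 11 of 47 lists with the length of the longest transcript and in none under the others, where this says nothing of stability: size factors, filters and pseudocounts do not enter TPM sums, and 1 of 3 libraries cannot move a mean by 1 SD. Without vehicle 3 the mean mature neutrophil sum was 3356 TPM, against 6547, and that of 6 liver genes 3.69, against 346. With total counts 52.2% of the genes apart were above, with no filter 54.7% and with the smaller pseudocount 42.5%, against 47.3%. A library left out leaves no pair of others, so counts above and below both were not run there. No paired analysis was possible because there is 1 group, in which each replicate number occurs 1 time.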

Other observations

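Some gene groups that the report does not describe were also present in the untreated tumours. Immediate early genes, which cells switch on within minutes of a stimulus, were high in all 3 libraries: Junb stood at 728, 815 and 931 TPM, Fos at 120.1, 171 and 175 TPM and Egr1 at 40.9, 44.6 and 61.0 TPM, and 1 of 19 was spread, Egr2. Vehicle 1 was the lowest library in 12 of the 19. Heat shock genes were similar between libraries, with 1 of 11 spread, and Hsp90ab1, a cytosolic chaperone, stood at 4940.3, 4122 and 5235 TPM. S100 proteins were a large family here, with 14 of 16 members averaging 1 TPM or more. S100a6, a calcium-binding protein of epithelial and stromal cells, stood at 3653, 2226 and 3195 TPM, in another order than S100a8 and S100a9. Of 26 integrin chains 25 averaged 1 TPM or more and 9 of 25 kept were spread. Receptors for chemokines were led by Ccr1, at 110.1, 168 and 107 TPM, and Cxcr4, at 96.3, 161 and 65.9 TPM, and vehicle 2 was the highest library in 9 of 13 kept receptors.

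Growth factors of the epidermal growth factor family were among the 9 spread members of 25 growth factors and colony-stimulating factors. Areg, amphiregulin, stood at 73.8, 161 and 53.5 TPM, Ereg, epiregulin, at 2.51, 3.24 and 7.46 TPM and Hbegf at 92.6, 76.7 and 178 TPM. Igf1, insulin-like growth factor 1, stood at 6.001, 8.14 and 14.1 TPM. Transcripts of Schwann cells and nerve were low, with Mbp, myelin basic protein, at 28.6, 22.1 and 47.2 TPM. The globin genes Hba-a2 and Hbb-bt, near-identical copies of other globin genes, were spread at 19.8, 63.9 and 82.5 and 20.8, 55.5 and 56.7 TPM, although Hbb-bs was not. Xist, the RNA of the inactive X chromosome, was spread at 61.0, 133 and 70.0 TPM.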
